A study of Mus musculus with 2 samples.

Results

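Regions of open chromatin at the promoters of long noncoding RNA (lncRNA) genes are described here in activated regulatory T cells, as mapped by ATAC-seq, which marks accessible DNA by the insertion of a transposase. A region belonged to the set when its summit lay within 1000 bp of a transcription start site (TSS) of a lncRNA gene and over 1000 bp from every TSS of a protein-coding gene. The lncRNA genes were those that the GENCODE M21 annotation of the mouse build mm10 types as lincRNA, antisense, processed_transcript or bidirectional_promoter_lncRNA. Of the 26090 regions in the thresholded peak list, 625 met this rule. Another 11022 had their summit within 1000 bp of a coding TSS (coding promoter regions), and 14443 lay near neither kind of start (other distal regions).

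The cells came from adult male mice, 4 months old, of a Foxp3CreERT2 and Rosa26YFP cross. In this cross the CreERT2 form of Cre is made where Foxp3, the factor that defines regulatory T cells, is active. The labels give the origin as a hematopoietic cell of the bone marrow and do not say how the cells were activated, nor how many animals were used. The 2 libraries are repeats, on the technical level, of 1 biological replicate, and every peak list describes them together. There is 1 group, no control and no value per library, so no comparison here has a test. Intervals of shares are 95% Wilson intervals of the counting error alone, and the read depth is unknown. Of 11 T and regulatory T cell marker genes, 9 had a region within 1000 bp of a TSS, Foxp3, Il2ra, Ctla4 and Ikzf2 among them, and Cd4 and Tnfrsf18 had none. Of 15 markers of other cells, Pax5 of B cells and Cd8b1 of CD8 T cells had one, and the part of such cells in the results was not tested.

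LncRNAs are transcripts of gene-like length with no long reading frame. Some act in the nucleus on nearby genes, such as Xist on the X chromosome, some serve as scaffolds of nuclear bodies, and some are the spliced host from whose introns or exons small RNAs are cut. In T cells, Mir155hg is the host of miR-155, which supports regulatory T cell fitness, and Morrbid controls the life span of myeloid cells by restraining the neighbouring death gene Bcl2l11. An open promoter shows that a start site is accessible. It does not measure the RNA, which was not analysed here.

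Sequences of 14 members are shown to let the kinds of promoter be read side by side. Each is the 201 bp centred on the summit, on the plus strand of mm10, 5′ to 3′, and capitals mark the motif named.

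The first 3 belong to lincRNA genes of chromosome 17 that share sequence and rank among the 10 strongest members. All 3 hold the ETS string, CCGGAAG, read here on the other strand.
BC002059, chr17:16951358-16951558, ETS: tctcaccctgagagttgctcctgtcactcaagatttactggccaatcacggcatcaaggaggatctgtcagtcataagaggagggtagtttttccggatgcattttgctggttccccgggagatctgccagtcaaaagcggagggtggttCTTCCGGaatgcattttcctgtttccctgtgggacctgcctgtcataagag
Gm5165, chr17:17234663-17234863, ETS: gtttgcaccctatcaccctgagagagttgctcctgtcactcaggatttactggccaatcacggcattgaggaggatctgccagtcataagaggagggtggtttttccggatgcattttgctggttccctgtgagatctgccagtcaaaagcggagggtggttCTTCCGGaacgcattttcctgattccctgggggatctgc
Gm6712, chr17:17294226-17294426, ETS: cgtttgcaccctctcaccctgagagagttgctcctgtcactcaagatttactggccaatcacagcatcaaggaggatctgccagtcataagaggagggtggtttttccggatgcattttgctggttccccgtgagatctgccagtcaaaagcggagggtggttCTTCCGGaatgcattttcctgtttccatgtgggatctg

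The next 4 are CpG-rich starts of lncRNAs used widely across tissues. Snhg15 is a snoRNA host and its capitals mark a cAMP response element (CRE), TGACGTCA. Snhg6 is another snoRNA host, with 2 ETS matches. 1700020I14Rik is the annotation's name for Oip5os1, also known as Cyrano, and its capitals mark the YY1 string, AAGATGGC. 2900097C17Rik is the annotation's name for Norad, which binds Pumilio proteins, and its capitals mark an ETS match.
Snhg15, chr11:6528709-6528909, CRE: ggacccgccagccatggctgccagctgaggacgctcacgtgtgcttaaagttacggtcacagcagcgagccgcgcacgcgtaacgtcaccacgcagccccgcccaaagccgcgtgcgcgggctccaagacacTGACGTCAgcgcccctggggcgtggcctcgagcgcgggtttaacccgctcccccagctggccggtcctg
Snhg6, chr1:9944060-9944260, ETS: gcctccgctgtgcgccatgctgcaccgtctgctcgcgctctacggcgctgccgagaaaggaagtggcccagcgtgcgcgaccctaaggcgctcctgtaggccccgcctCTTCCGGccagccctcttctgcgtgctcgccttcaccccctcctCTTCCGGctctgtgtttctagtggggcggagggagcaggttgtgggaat
1700020I14Rik, chr2:119594177-119594377, YY1: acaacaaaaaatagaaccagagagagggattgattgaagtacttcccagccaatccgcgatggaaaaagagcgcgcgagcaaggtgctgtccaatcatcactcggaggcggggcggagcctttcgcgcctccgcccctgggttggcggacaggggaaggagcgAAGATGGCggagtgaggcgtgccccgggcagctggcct
2900097C17Rik, chr2:156392891-156393091, ETS: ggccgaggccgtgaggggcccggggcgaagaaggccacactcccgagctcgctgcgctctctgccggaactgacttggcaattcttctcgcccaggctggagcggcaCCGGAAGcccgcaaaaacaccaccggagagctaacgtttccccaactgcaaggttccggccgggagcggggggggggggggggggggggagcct

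Kcnq1ot1, the imprinted antisense RNA that silences genes around Kcnq1, had 3 CCAAT boxes in its window, each read on the other strand. Neat1, the scaffold RNA of nuclear paraspeckles, had a TATA box, TATAAA, also on the other strand, which is the strand of the gene.
Kcnq1ot1, chr7:143296543-143296743, CCAAT box: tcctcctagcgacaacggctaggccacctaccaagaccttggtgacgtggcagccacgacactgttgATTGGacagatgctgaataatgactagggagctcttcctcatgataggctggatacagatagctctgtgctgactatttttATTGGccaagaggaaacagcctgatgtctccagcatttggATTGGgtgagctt
Neat1, chr19:5845431-5845631, TATA box: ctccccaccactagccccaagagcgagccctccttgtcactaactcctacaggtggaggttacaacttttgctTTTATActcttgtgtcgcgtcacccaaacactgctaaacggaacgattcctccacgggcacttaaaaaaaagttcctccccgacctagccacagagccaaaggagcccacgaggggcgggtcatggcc

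The last 5 hold motifs of factors at work in activated T cells. Mir155hg, Mirt1 and Gm33524 have the AP-1 string, TGANTCA, and Gm19585 and 2010110G14Rik have the RUNX string, TGTGGTT, which is on the other strand in the second. The nearest coding gene is Dusp5 for Mirt1, Egr3 for Gm33524, Satb1 for Gm19585 and Lef1 for 2010110G14Rik.
Mir155hg, chr16:84703213-84703413, AP-1: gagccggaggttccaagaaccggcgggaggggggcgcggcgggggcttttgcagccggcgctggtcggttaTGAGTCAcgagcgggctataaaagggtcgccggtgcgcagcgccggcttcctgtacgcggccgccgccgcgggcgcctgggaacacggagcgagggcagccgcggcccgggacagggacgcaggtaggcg
Mirt1, chr19:53464751-53464951, AP-1: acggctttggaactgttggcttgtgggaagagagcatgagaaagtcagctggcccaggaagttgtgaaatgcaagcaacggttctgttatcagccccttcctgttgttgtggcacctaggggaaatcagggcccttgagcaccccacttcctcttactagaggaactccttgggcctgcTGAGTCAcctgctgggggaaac
Gm33524, chr14:70057009-70057209, AP-1: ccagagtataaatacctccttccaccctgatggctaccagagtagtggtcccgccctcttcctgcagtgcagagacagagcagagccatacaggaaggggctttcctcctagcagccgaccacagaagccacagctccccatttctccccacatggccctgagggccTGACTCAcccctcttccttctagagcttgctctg
Gm19585, chr17:52149153-52149353, RUNX: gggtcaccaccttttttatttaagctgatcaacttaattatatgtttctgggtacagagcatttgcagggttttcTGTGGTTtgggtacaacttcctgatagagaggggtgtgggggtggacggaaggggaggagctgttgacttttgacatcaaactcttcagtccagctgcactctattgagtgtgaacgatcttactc
2010110G14Rik, chr3:130937078-130937278, RUNX: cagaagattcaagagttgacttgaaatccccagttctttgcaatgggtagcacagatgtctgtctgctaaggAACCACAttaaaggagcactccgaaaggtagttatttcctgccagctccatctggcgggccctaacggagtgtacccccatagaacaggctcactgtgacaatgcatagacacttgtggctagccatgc

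The members were 2.40% of all regions and 4.15% (95% interval 3.84 to 4.48) of the 15068 regions over 1000 bp from every coding TSS. By the type of the nearest lncRNA gene, 375 were lincRNA promoters (60.0%), 151 antisense (24.2%), 97 processed_transcript (15.5%) and 2 bidirectional_promoter_lncRNA (0.32%). Together they touched 592 of the 9793 lncRNA genes. The rule left out most open lncRNA starts: of 1743 regions with a summit within 1000 bp of a lncRNA TSS, 1118 (64.1%) also lay within 1000 bp of a coding TSS. The 2 bidirectional members, Gm26839 beside Foxn3 and 2410022M11Rik beside Zmym5, had summits 940 and 905 bp downstream of the lncRNA TSS, and so lay away from the shared start that gives the type its name.

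Open starts were counted per lncRNA gene, and a start shared with a coding gene was counted for both. Among 7787 lncRNA genes whose every TSS lay over 1000 bp from coding TSSs, 564 had a region within 1000 bp of a TSS, or 7.24% (6.69 to 7.84). Among 2006 with a TSS near a coding one, 1054 did, or 52.5% (50.4 to 54.7), and among 21938 protein-coding genes 10651 did, or 48.6%. Within the genes away from coding starts, the share was 6.34% of 5461 lincRNA genes, 7.27% of 1871 antisense genes and 18.2% of 451 processed_transcript genes. It was also higher with more annotated starts: 5.53% of 5953 genes with 1 TSS, 10.7% of 1548 with 2 or 3, and 24.5% of 286 with 4 or more. A gene with more starts has more windows in which a summit can fall, and the part of this in the difference was not tested.

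The deposited signal value is the peak caller's enrichment for a peak, and a region takes that of its strongest peak. The members had a median signal of 12.9 (quartiles 9.26 and 17.4), close to the 12.6 of other distal regions and below the 15.4 of coding promoter regions. Their median width of 639 bp lay between the 525 bp of other distal regions and the 832 bp of coding promoter regions. More than 1 summit was found in 54.9% of members (51.0 to 58.7), against 37.2% of other distal and 73.4% of coding promoter regions. Over all regions the median signal was 13.6, the median width 637 bp and the share with more than 1 summit 52.9%. The members' width and summit share lay near those of all regions. The irreproducible discovery rate (IDR) scores how well a peak ranks alike in the inputs compared, and a low value means a repeatable peak. A region took the lowest global IDR of its peaks, so a region with more summits had more chances of a low value. A global IDR of 0.01 or below was reached by 468 of 625 members, or 74.9%, where the background over all regions was 76.2%. The members' share thus lay near the background, between 67.2% of other distal and 88.0% of coding promoter regions. The ranking values of a peak in the 2 inputs, read as −log10 p from the order and size of the columns, were within 2-fold of each other for 97.4% of members and 98.2% of all regions. The list had already been selected by IDR for such agreement, and the sources used here do not say what the inputs are.

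**Figure D1:**
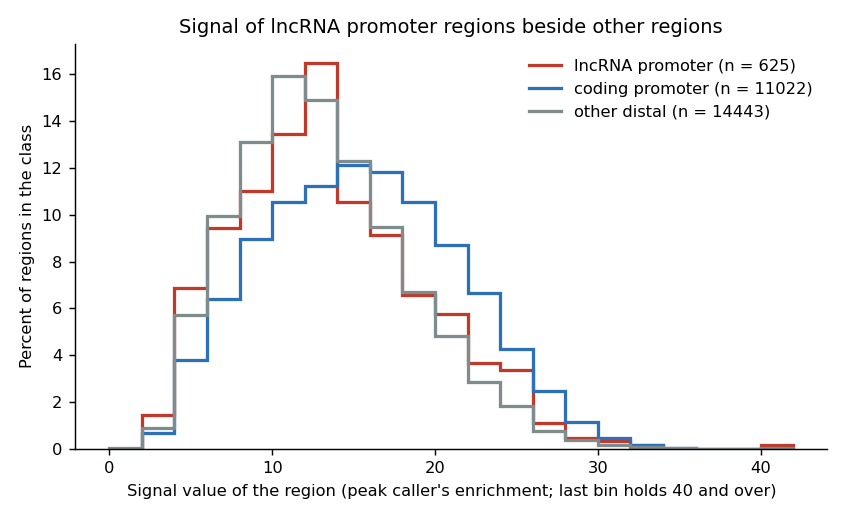
Percent of regions in each class (y) by the signal value of the region (x, in bins of 2), with 1 line per class. The line of the 625 lncRNA promoter regions follows that of other distal regions, with medians of 12.9 and 12.6, and the coding promoter line is shifted to higher values, with a median of 15.4.

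The strongest member was the promoter of Gm13274, an antisense lncRNA at chr4:88757435-88757921 whose nearest coding gene is Gm13283, with a signal of 40.6. The next was 32.4 at BC002059, a lincRNA at chr17:16951092-16951786, so Gm13274 stood well above the rest. The others of the 10 strongest were AA465934 beside Slfn14 (30.9), Gm26510 (30.6), Gm39469 (29.99), Gm6712 (29.8), Gm5165 (28.9), Gm26670 beside Rd3 (27.5), Gm10433 (26.96) and 1700020I14Rik (26.6). All 10 had their summit upstream of the lncRNA TSS, from 20 bp at 1700020I14Rik to 361 bp at Gm10433. The weakest member was 9330179D12Rik, beside the cyclin gene Ccnd2, with a signal of 3.25.

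The types differed among themselves. The median signal was 14.2 for processed_transcript, 13.2 for lincRNA and 12.1 for antisense members, with quartiles that overlapped widely. The median width followed the same order, at 705, 653 and 571 bp. The 3 strongest lincRNA members were BC002059, Gm26510 and Gm39469, and the 3 strongest antisense members were Gm13274, Gm26670 and Gm37885 (26.4, beside Capn2). The 3 strongest processed_transcript members were AA465934, Gm10433 and 9330159M07Rik (26.3), and the bidirectional pair had signals of 8.29 and 5.85.

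The widest members were composite regions with many summits. The widest, at the lincRNA gene G730013B05Rik, spanned chr16:50528457-50530523, or 2067 bp, with 9 summits, but its signal was 8.22. Gm46210 beside Stxbp5 spanned 2015 bp with 7 summits and a signal of 20.8. 1810059C17Rik beside Mllt10 spanned 1932 bp with 6 summits, Gm40190 beside Bcar3 1593 bp with 6, and Tmem250-ps beside Nacc2 1509 bp with 5. C030034I22Rik, 1333 bp wide, had the highest signal of those with 5 summits, at 19.9. Across the 625 members, signal and width had a Spearman rho of 0.387, given as a description, since both values of a region come from the same reads.

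Summits lay upstream of the start site more often than downstream of it. The median distance from summit to lncRNA TSS was 163 bp (quartiles 59 and 462), against 57 bp (21 and 146) from coding promoter summits to the coding TSS. Of the members, 39.8% lay within 100 bp, 59.0% within 250 bp and 77.9% within 500 bp. For coding promoter regions and coding TSSs the same shares were 66.9%, 82.6% and 90.8%. The summit was upstream in 65.3% of members (61.5 to 68.9), against 71.6% of coding promoter regions. By type it was upstream in 61.3% of lincRNA, 71.5% of antisense and 72.2% of processed_transcript members.

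**Figure D2:**
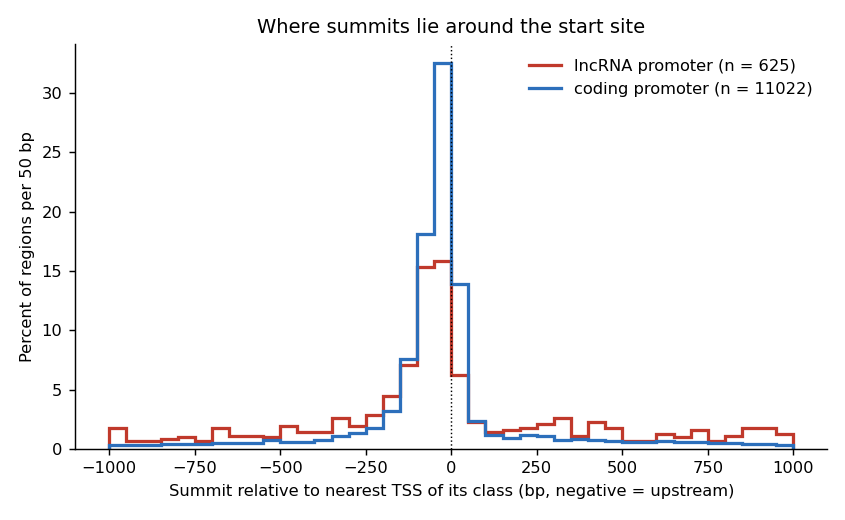
Percent of regions per 50 bp (y) by the position of the summit relative to the nearest start site of its class (x, bp, negative values upstream). Both lines peak in the 100 bp before the start, and the lncRNA line is lower there and has more of its regions toward both edges, with 39.8% within 100 bp against 66.9% for coding promoter regions.

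Members close to the start differed from those far from it in several values. The summit of a region is that of its peak with the highest signal, so signal and distance are not independent. The 249 members within 100 bp of the TSS had a median signal of 14.5 and a median CpG ratio (observed over expected) of 0.50. The 138 members over 500 bp away had a signal of 11.2 and a ratio of 0.37. Across members the Spearman rho of distance with signal was -0.205 and with the CpG ratio -0.209, both weak and given as descriptions (n = 625). The ETS string was present in 14.1% of the near group (10.3 to 18.9) and 5.07% of the far group (2.48 to 10.1).

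In base composition the members lay between coding promoters and distal regions. The median CpG ratio in the 201 bp at the summit was 0.41 (quartiles 0.24 and 0.68) in members, 0.81 in coding promoter and 0.26 in other distal regions. The median GC content was 53.7%, 63.2% and 49.2% in the same order. Over all regions the medians were 0.42 and 53.7%, near those of the members. A window was called CpG-rich at a ratio of 0.6 or more and a GC content of 50% or more. By that rule 174 members (27.8%, 24.5 to 31.5) were CpG-rich, against 72.5% of coding promoter, 6.01% of other distal and 34.6% of all regions. Among the types it was 42.3% of processed_transcript, 27.5% of lincRNA and 19.9% of antisense members.

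**Figure D3:**
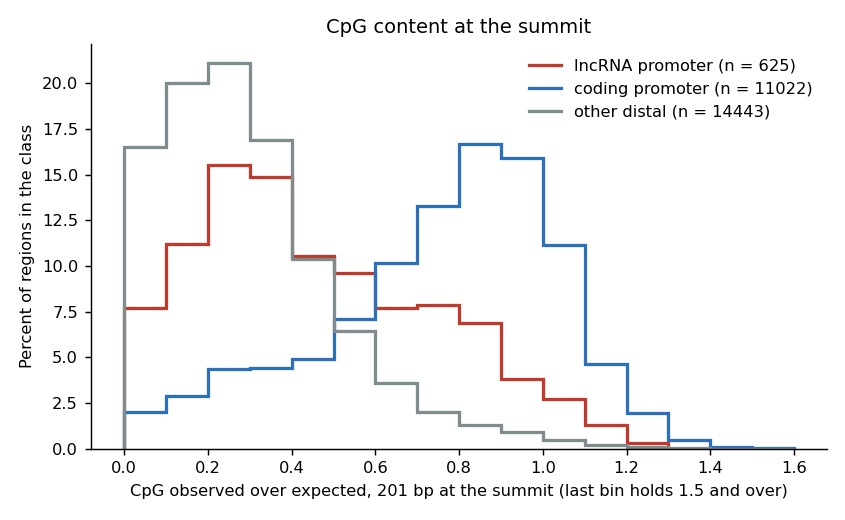
Percent of regions in each class (y) by the CpG ratio, observed over expected, in the 201 bp at the summit (x, in bins of 0.1). The lncRNA promoter line has its median at 0.41, between 0.26 for other distal and 0.81 for coding promoter regions, with a long shoulder over the range where the coding line peaks.

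The 174 CpG-rich members were stronger and wider than the 451 CpG-poor ones, with a median signal of 14.5 against 12.5 and a median width of 755 against 594 bp. Coding promoter regions showed the same order, at 16.1 and 887 bp when CpG-rich and 12.9 and 653 bp when CpG-poor. Split in this way, CpG-poor members (12.5), coding promoter regions (12.9) and other distal regions (12.5) had near-equal median signals. CpG-rich members (14.5) lay between CpG-rich other distal regions (13.3) and CpG-rich coding promoter regions (16.1). Of the CpG-rich members 56.3% had a summit within 100 bp of the TSS, and of the CpG-poor ones 33.5%.

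Motif matches were searched as fixed letters on both strands, and a match is a description of the sequence only. The shares depend on the length searched: with 50 bp either side of the summit, the GC box was in 18.7% of members and RUNX in 5.12%. Strings known from CpG-rich promoters had lower shares in members than in coding promoter regions. The GC box, GGGCGG, of the Sp and Klf factors was in 28.6% of members (25.2 to 32.3), 57.9% of coding promoter, 10.8% of other distal and 31.1% of all regions. The ETS string was in 8.64% of members (6.68 to 11.1), 18.0% of coding promoter, 4.22% of other distal and 10.1% of all regions. The CCAAT box, CCAAT, which NF-Y binds, was in 24.8% of members, 33.6% of coding promoter, 19.7% of other distal and 25.7% of all regions. For the NRF1 string, GCATGCGC, the shares were 1.44%, 3.97%, 0.71% and 2.10% in that order, for the YY1 string 1.28%, 4.12%, 1.21% and 2.44%, and for the CRE 2.72%, 3.66%, 0.90% and 2.11%. The interval of the members for the CRE, 1.71 to 4.31, covers the coding promoter share, and that for YY1, 0.65 to 2.51, covers the other distal share.

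For AP-1, RUNX and CTCF the members lay above coding promoter regions, below other distal regions and near the share of all regions. The AP-1 string was in 8.96% of members (6.96 to 11.5), 3.77% of coding promoter, 13.7% of other distal and 9.39% of all regions. The RUNX string was in 8.80% of members (6.82 to 11.3), 3.54% of coding promoter, 14.1% of other distal and 9.49% of all regions. The CTCF consensus, the site of the factor that anchors chromatin loops, was in 4.00%, 1.41%, 6.49% and 4.28%, and the TATA box in 6.24% (4.60 to 8.42), 2.98%, 7.92% and 5.79%. The NF-kB string, GGGANTTCC, was in 2.40% of members, 2.30% of coding promoter, 2.61% of other distal and 2.47% of all regions. Its closing letters can overlap an ETS match on the other strand. The ZNF143 string, CTACAATTC, was in 0 of 625 members. That allows a share of up to 0.48% by the limit of 3 counts and 0.61% by the Wilson interval. It was in 0.64% (0.50 to 0.80) of coding promoter, 0.07% of other distal and 0.31% of all regions. The shares of other distal and of all regions lie below both limits.

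**Figure D4:**
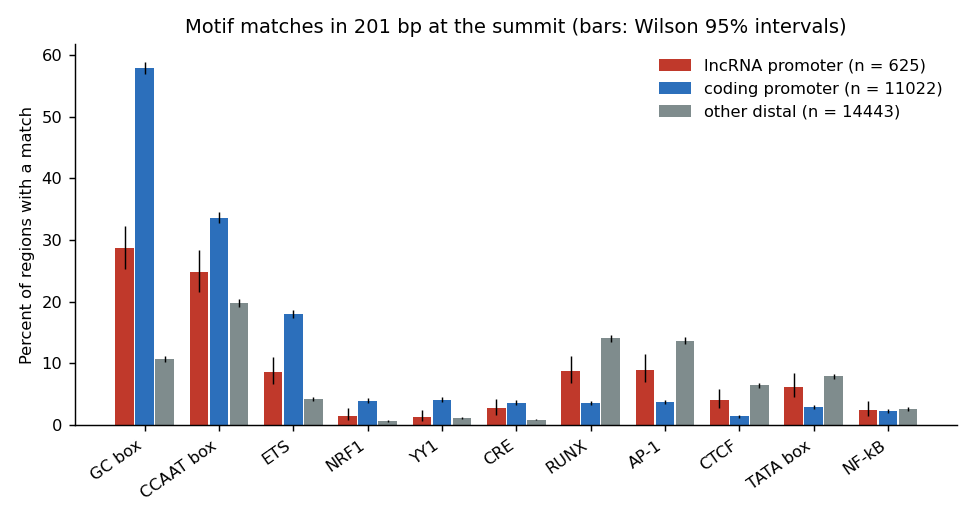
Percent of regions with at least 1 match to a motif in the 201 bp at the summit (y) for 11 of the 12 motifs searched (x), with 1 bar per class and Wilson 95% intervals of the counting error alone. For the GC box the lncRNA promoter bar (28.6%) lies between other distal (10.8%) and coding promoter regions (57.9%), and for AP-1 (8.96%) it lies between coding promoter (3.77%) and other distal regions (13.7%).

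Within the members the strings divided by CpG content. The GC box was in 58.6% of CpG-rich members (51.2 to 65.7) and 17.1% of CpG-poor ones (13.9 to 20.8), and its letters include a CpG. AP-1 was in 2.30% (0.90 to 5.76) and 11.5% (8.90 to 14.8), and RUNX in 3.45% (1.59 to 7.32) and 10.9% (8.32 to 14.1). CpG-poor coding promoter regions had 7.75% for AP-1 and 7.98% for RUNX, and CpG-poor other distal regions had 14.1% and 14.7%.

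Repeats were a small part of the windows. In 49.1% of members no base of the window was masked as repeat in the assembly. The share was 64.6% of coding promoter, 42.4% of other distal and 51.9% of all regions. Over 50% of the window was masked in 11 members (1.76%), against 0.38% of coding promoter, 3.01% of other distal and 1.87% of all regions. By both shares the members lay near all regions. The 31 bp at the summit occurred once in the genome for 603 members (96.5%), and 22 had 2 or more copies, with 9 at Gm32051 and 6 at C920006O11Rik. The sources used here do not say how reads with several matches were placed, so the signal at those 22 is uncertain.

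Some strong members shared sequence with one another. Members that shared at least 20 of their 15-base words fell into 5 families, which held 14 members. The family of BC002059, Gm5165 and Gm6712 on chromosome 17, printed above, was 83.1% to 94.1% identical in end-to-end alignment, and its signals were 32.4, 28.9 and 29.8. The largest family had 4 members in a row on chromosome 13, near Zfp825 and Erap1, which were E430024I08Rik (25.5), Gm47467 (24.7), Gm47469 (21.4) and Gm46430 (18.6). Gm32856, Gm20939 and Gm31793 lie on chromosomes 8, 17 and 10, and had signals of 24.8, 23.97 and 21.1. The pair 9330159M07Rik and 9430037G07Rik on chromosome 9, beside Trim43c and Trim43a, had 26.3 and 26.0, and the pair 2700038G22Rik and AI506816 on chromosome 5 had 15.5 and 15.3. Identity ran from 66.4% to 87.6% in the largest family, with E430024I08Rik at 69.6% or below to each of the others. It was 84.1% to 92.2% in the family of Gm20939, 77.8% in the chromosome 9 pair and 71.7% in the chromosome 5 pair. All 14 exceeded the members' median of 12.9, and members that share sequence are not independent of each other.

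The nearest coding TSS lay at a median of 20763 bp from the member's summit, against 15112 bp for other distal regions. It was within 2500 bp for 59 members, and over 100000 bp away for 77 (12.3%, against 8.77% of other distal regions). The 59 close members were weaker, with a median signal of 8.91, and the 77 remote ones had 13.8. Fewer members than other distal regions lay inside a coding gene: 143 (22.9%, 19.8 to 26.3) had the summit in a coding gene body, against 52.7%. For antisense members, which by type overlap a coding gene or its edge, it was 70.9%. For lincRNA members, which by type are intergenic, it was 6.40%, so the members' share depends on the mix of annotated types.

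Divergent arrangement, counted at any distance from the nearest coding gene, was the most frequent one among members. The rule removed pairs whose starts lie close together. Shares of each arrangement over all annotated lncRNA genes were not computed, so an excess among open starts was not tested. The lncRNA was on the strand opposite to the nearest coding gene and upstream of its TSS for 217 members (34.7%, 31.1 to 38.5). It was opposite and downstream for 164 (26.2%), and on the same strand upstream for 122 and downstream for 122 (19.5% each). Among antisense members 56.3% were opposite and downstream, and among lincRNA members 37.3% were divergent.

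The nearest coding gene of 35 members was in a list of 146 T cell genes, or 5.60% (4.05 to 7.69). The share was 6.23% (5.85 to 6.64) of other distal regions, an interval that overlaps that of the members, and 1.62% of coding promoter regions. These 35 members named 25 of the 146 genes, and their median signal was 11.4, below the 12.9 of all members. The strongest was Gm4258 (20.1), whose nearest coding gene is Ptprc, the CD45 phosphatase, 216940 bp away, and a further lincRNA, Gm28556 (14.5), lies 16100 bp from Ptprc. Gm13293 (19.9) is 88622 bp from Prkcq, the kinase that carries T cell receptor signals to NF-kB.

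The other 7 of the 10 strongest follow. 2010110G14Rik (18.7) is 173293 bp from Lef1 and Gm19585 (16.4) is 315963 bp from Satb1, both factors of thymic T cell development, and both hold the RUNX string printed above. Gm37170 (17.3) is 70172 bp from Foxo1, which keeps T cells quiescent. Gm33524 (18.2), 20094 bp from Egr3, an activation-induced regulator, holds the AP-1 string. Gm36723 (13.9) is 219019 bp from Id2, an inhibitor of E proteins, and Gm4668 (15.4) is 13757 bp from Tgfbr2, a receptor subunit for TGF-beta. The 10 strongest end with Pvt1 (13.9), whose nearest coding gene is Myc, the growth regulator, 190467 bp from this region. Distances of this size leave a link between a lncRNA start and the gene named unmeasured.

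The 5 lists of known lncRNAs held 70 genes of the 4 types, of which 39 had a region within 1000 bp of a TSS and 29 a member. Of all 9793 lncRNA genes, 16.5% had such a region and 6.05% a member, and the counts of each list below stand beside these shares.

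**Figure D5:**
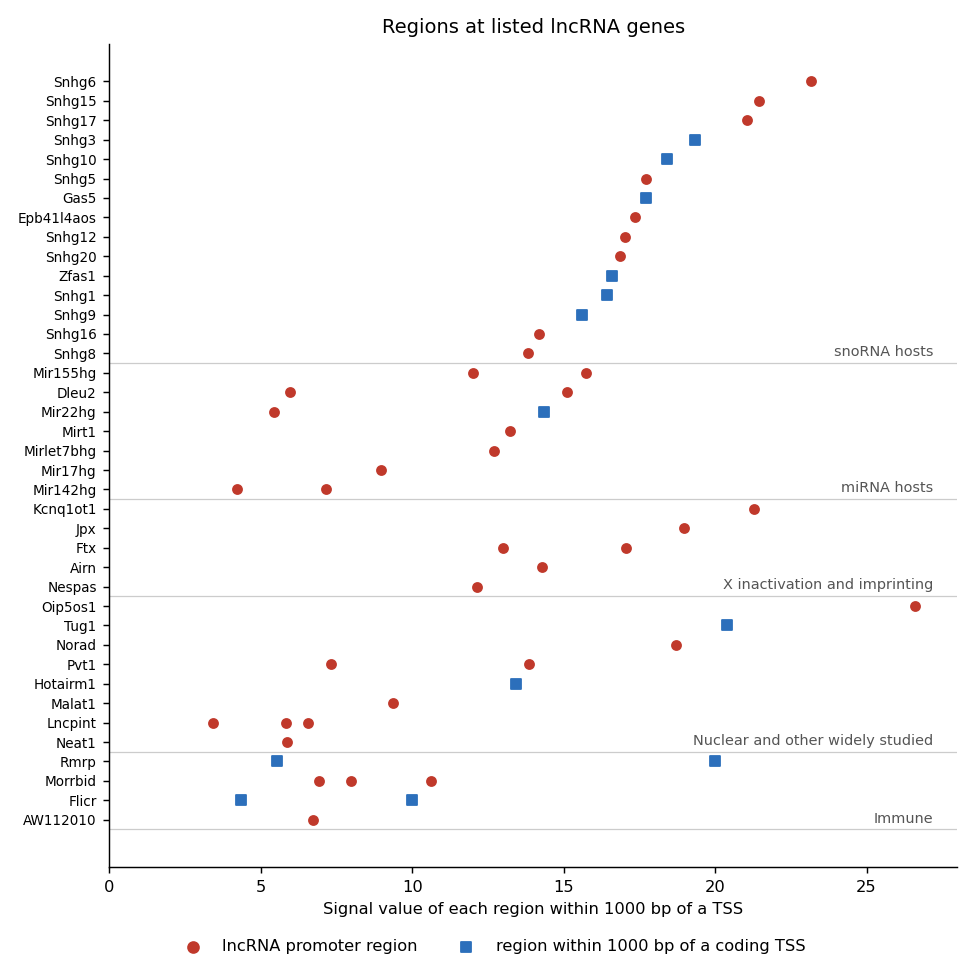
Signal value (x) of every region within 1000 bp of a start of the listed lncRNAs that had one (y, grouped by list), with circles for lncRNA promoter regions and squares for regions that also lie near a coding TSS. The snoRNA hosts lie between 13.8 and 23.2, and the immune list has the single high value of 20 at Rmrp.

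The snoRNA hosts, genes whose introns carry the small RNAs that guide ribosomal RNA modification, were open almost throughout. Of 17 in the annotation with a lncRNA type, 15 had a region. Of these, 9 were members: Snhg6 (23.2), Snhg15 (21.4), Snhg17 (21.1), Snhg5 (17.7), Epb41l4aos (17.3), Snhg12 (17.03), Snhg20 (16.9), Snhg16 (14.2) and Snhg8 (13.8). All 9 were above the members' median signal. The other 6 shared their region with a coding start, namely Gas5, a regulator of growth arrest, with Snhg1, Snhg3, Snhg9, Snhg10 and Zfas1, and their signals ran from 15.6 to 19.3. Snhg14 and Snhg18 had no region in either the thresholded or the pseudoreplicated list.

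The list of miRNA hosts was open in 7 of 13 cases. It also holds Mirt1 and Mirt2, which are not miRNA hosts, and without them the count was 6 of 11. Mir155hg had a member at its 5′ start, chr16:84702677-84703605, with a signal of 12.01, and a stronger one of 15.7 at chr16:84712958-84713815, by a downstream start. The 5′ region, printed above with its AP-1 string, had a CpG ratio of 1.14, and the downstream one had 0.25. Dleu2, host of miR-15a and miR-16, had 15.1 and 5.95. Mirt1, named for myocardial infarction, had 13.2, and Lncppara, the annotation's name for Mirlet7bhg, a let-7 host, had 12.7. Mir17hg, host of the miR-17 to miR-92 cluster, had 8.97 at 624 bp upstream of the start. Mir142hg, host of the blood-restricted miR-142, had 7.14 and 4.21, and Mir22hg had 5.44 beside a stronger region near a coding start. No region was found at Mir99ahg, 3110039I08Rik (Mir100hg), Mir124a-1hg, Mir124-2hg, Mir9-3hg or Mirt2.

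Of 11 X inactivation and imprinting lncRNAs, 5 had a member and none shared a coding start. Kcnq1ot1 had 21.3, at chr7:143296253-143296944, and Airn, which silences Igf2r in cis, had 14.3 at 3 bp from its TSS. Nespas, antisense to the Nesp start of Gnas, had 12.1. Jpx and Ftx, regulators within the X inactivation centre, had 18.98 for Jpx and 17.1 and 13.0 for Ftx. Xist itself, which is silent in male cells, had no region in either list, and Tsix had one of 8.10 in the pseudoreplicated list only. Meg3, Rian, Mirg and H19 had none in either list.

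Among 18 nuclear and other widely studied lncRNAs, 6 had a member and 2, Tug1 (20.4) and Hotairm1 (13.4), a region shared with a coding start. Oip5os1 had 26.6 and Norad 18.7. Pvt1 had 13.9 and, at another start, 7.33. Malat1 and Neat1, neighbours on chromosome 19 and among the most abundant nuclear RNAs of most cells, had only 9.38 and 5.86, both below the members' median. The Malat1 summit lay 989 bp upstream of its TSS, near the edge of the window, and the Neat1 summit 53 bp upstream. Lncpint, a p53-induced RNA, had 3 members of 6.57, 5.83 and 3.44. Firre and Trp53cor1 had regions in the pseudoreplicated list only, and Miat, Rmst, Hotair, Hottip, Fendrr, Dnm3os, Sox2ot and Evx1os in neither list.

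The immune list gave 4 of 11. Morrbid, annotated as Gm14005, had 3 members of 10.6, 7.96 and 6.93, the first at chr2:128428653-128429610 with its summit 3 bp from the TSS. AW112010, an RNA of inflammatory macrophages, had 6.72. Flicr, which lies beside Foxp3 and lowers its expression, had 9.99 and 4.35, and Rmrp, the RNA of the RNase MRP enzyme, had 20 and 5.52, all close to coding starts (Ppp1r3f and Ccdc107). Gm16685, Bach2os and Dnmt3aos had a region in the pseudoreplicated list only, with signals of 7.67, 5.71 and 4.05. Ptgs2os, Ptgs2os2, Ifngas1 and Lncenc1 had none in either list.

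Several members at 1 gene were the exception. Of 592 lncRNA genes with a member, 48 (8.11%) had 2 or more. Lncpint, Gm14005, Gm26887 and A630019I02Rik had 3 each. The 3 at A630019I02Rik, 9.69, 6.35 and 5.66, lie side by side on chromosome 13, and the 3 at Gm26887 near Nanos3 had 12.2, 3.899 and 3.33.

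The regions nearest to each edge of the rule were these. Just inside the lncRNA distance were 2310031A07Rik and Gm12796, both at 999 bp, and Gm20275 at 991 bp, with signals of 9.38, 20.02 and 12.2. Just outside were Gm47242 at 1007 bp, Gm15729 at 1008 bp and Gm47079 at 1015 bp, with 15.5, 19.2 and 5.15. Just far enough from a coding TSS were A330009N23Rik at 1001 bp, Gm26580 at 1004 bp and Gm10516 at 1005 bp, with 8.89, 3.999 and 8.91. Just too close were Gm27042 at 980 bp, 4930579G18Rik at 979 bp and N4bp2os at 978 bp, with 10.2, 11.02 and 21.6. Among these regions, signals on each side of the lncRNA distance overlapped, and those on each side of the coding distance did not. The regions are few and were picked by closeness to an edge, so they cannot show a step in signal. Whether signal changes at either distance was not tested.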

How the data were processed

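ATAC-seq peak lists from activated regulatory T cells were analysed: 3 lists of the whole series, made from 1 alignment of both libraries to mm10, per the README that comes with each library. The aligner, peak caller, read filters and any shift of reads for the transposase are, in the sources used here, not given. Peaks were called on the libraries together, so no sample has values of its own. The deposited signal of a peak is the caller's enrichment over a reference level that the files do not name. The deposited −log10 columns hold the caller's p-value and q-value and, in the ranked list, the local and global IDR and the values of the 2 inputs. The deposited score runs to 1000 and follows the global IDR. All are the authors' own values per peak, used within a list to describe or filter its peaks.

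The 48668 thresholded peaks (IDR of 0.05 or below) were merged where they overlapped by 1 bp or more, which gave 26090 regions, and the strongest peak gave signal and summit. A TSS was the 5′ end of any transcript in GENCODE M21 (GRCm38.p6, whose chromosomes are those of mm10). Names in the lists were matched to the annotation by symbol, or by synonyms of the RefSeq gene table (Meg8 is the annotation's Rian and was counted once). Sequence came from the reference genome, 100 bp either side of the summit, and repeats are its masked bases. Shares have Wilson 95% intervals, and with 1 group and 1 biological replicate no test was run. Depth is unknown, and regions are not replicates. Classification and motif search were tested on simulated data.

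The members, the lists and the settings were chosen with earlier results of these data known. Named lncRNAs are the 10 strongest members, the 3 strongest of each type, the 5 widest, the 5 with the most summits, all in the 5 lists, the 10 strongest beside the T cell list, and the 3 regions on each side of each threshold. Sequence families, genome copies, masking, the split by distance and the printed sequences were added after the values were seen. Alternatives covered start definitions, gene types, windows of 500 and 2500 bp, the pseudoreplicated list, an IDR of 0.01, unmerged peaks, a shorter sequence window and an overlap of 50%. The work ran in Python 3.11.15 (scipy 1.17.1, pandas 2.3.3, numpy 2.4.6).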

Additional observations from a re-analysis of the deposited data

How the results depend on the processing

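No paired analysis was possible because the lists pool both libraries and there is 1 group, and leaving out a replicate was not possible for the same reason. Of 150 values recomputed under an alternative, 105 stayed close (within the 95% interval of the main value or, for the number of regions, within 1.5 times) and 45 moved. The number of lncRNA promoter regions (625) was 1120 in the pseudoreplicated list and 1174 with unmerged peaks, and from 468 (an IDR of 0.01) to 866 (a 2500 bp window) under the others. Their percent of the regions away from coding TSSs (4.15) was 3.71 with the gene's 5′ end alone, 3.34 with a 500 bp window, 6.37 with 2500 bp, 3.20 in the pseudoreplicated list, 4.60 at an IDR of 0.01 and 5.15 unmerged. The percent of lncRNA genes away from coding TSSs with a region (7.24) was 6.12 with 500 bp, 10.2 with 2500 bp, 11.6 in the pseudoreplicated list and 5.56 at an IDR of 0.01. The median signal (12.9) was 8.77 in the pseudoreplicated list, 14.6 at an IDR of 0.01 and 8.19 unmerged, and the median width (639 bp) was 483.5, 698.5 and 776 bp. The median CpG ratio (0.406) was 0.449 with 500 bp, 0.355 with 2500 bp, 0.377 in the pseudoreplicated list, 0.443 at an IDR of 0.01 and 0.449 with 50 bp either side of the summit. The percent of members with the summit upstream of the TSS (65.3) was 69.1 with 500 bp, 60.4 with 2500 bp and 57.3 unmerged. The percent with more than 1 summit (54.9) was 40.5 in the pseudoreplicated list and 60.3 at an IDR of 0.01. Of the motif shares 13 moved. With 50 bp either side of the summit the percent was 5.44 for ETS (8.64), 18.7 for the GC box (28.6), 15.7 for CCAAT (24.8), 5.92 for AP-1 (8.96), 5.12 for RUNX (8.80), 2.72 for the TATA box (6.24) and 0.64 for NRF1 (1.44), and for CTCF (4.00) it was 2.47 with unmerged peaks. The other classes of region were not recomputed, so the order of members and other classes was not checked under the alternatives. The window, the list and the merging set which regions are counted, and a shorter sequence window holds fewer bases to match. The unknown depth limits what the absence of a region at a lncRNA start can show.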

Other observations

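The pseudoreplicated list held 1120 lncRNA promoter regions by the same rule, and 624 of them overlapped a thresholded region by 1 bp or more (55.7%). The share over all regions of the pseudoreplicated list was not computed, so 55.7% has no background beside it. Those 624 had a median signal of 12.9 (quartiles 9.29 and 17.4). The 496 found in the pseudoreplicated list alone had a median of 5.74 (4.24 and 7.42). The thresholded list was itself selected by IDR, and the same split was not computed for other regions. The difference thus cannot be read as a trait of lncRNA starts.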
